A study of Drosophila mojavensis with 97 samples.

Results

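The 5 transcripts described here are the *D. mojavensis* genes GI11114 (FBtr0161839), GI12244 (FBtr0162969), GI19527 (FBtr0170252), GI13088 (FBtr0163813), and GI13085 (FBtr0163810), which the study's annotation places in the Hsp20 family of small heat shock genes. They were taken by identifier from the 14528 transcripts on the array, and all 5 were measured on every array. The study picked such genes from transcripts that responded to heat on these same arrays, so that their rise at 35°C is not independent evidence of its direction.

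Small heat shock proteins carry a conserved alpha-crystallin domain and assemble into large oligomers. They bind proteins that begin to unfold under stress and hold them in a state from which chaperones of the Hsp70 type, which use ATP, can refold them. In *D. melanogaster*, heat shock factor induces several small heat shock genes, and some are also transcribed without stress, for example in the ovary. The annotation used here gives the 5 genes a family but no individual role.

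RNA came from whole wild-type females, 7 days old and pooled in groups of 30, of 4 laboratory stocks. Those from Punta Prieta (PP) and from San Quintin (SQ) originated in Baja California, and those from Punta Onah (PO) and Organ Pipe National Monument (OPNM, combined from 20 isofemale lines) on the mainland. Larvae fed on fermented tissue of agria or of organ pipe cactus, and adults were kept on banana food, and spent 12 hr at 15, 25, or 35°C before freezing. The 24 combinations were measured on 97 single-color arrays, with 5 for PP flies from agria at 35°C and 4 in each of the 23 other groups. The paper describes 4 replications of each combination, each a pool of females. Nothing in the labels shows whether the pools of a combination came from separate cultures. The p-values thus measure the spread between arrays, which may not include that between cultures. In OPNM on organ pipe at 35°C, 2 arrays carry replicate number 3 and none carries 2.

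Values are log2 of the probe set summary that the authors deposited, so a difference of 1 is a doubling of signal, and levels are compared only within a transcript. In whole females, a change in the RNA per cell and a change in the number of cells that carry it cannot be told apart. Array medians lay between 9.81 and 10.10 and interquartile ranges between 2.51 and 3.42. The mean correlation of an array with the others of its group was between 0.86 and 0.99. The 4 lowest, SQ on agria at 35°C array 4, SQ on organ pipe at 35°C arrays 1 and 4, and PP on organ pipe at 35°C array 4, were at 0.92 or below, and without them 61 in place of 59 of the 65 heat contrasts given next were called. The vitelline membrane genes Vm26Aa and Vm26Ab, made by ovarian follicle cells, lay between 8.56 and 13.47 and between 10.52 and 14.24 over the arrays. The lowest Vm26Aa values, at 15°C, were below the array medians. Both genes were lower at 15 than at 25°C, by 2.18 ± 0.15 and 1.63 ± 0.11 (SE).

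The question of the first comparison was what 12 hr at 35°C did to each gene in each population. Averaged over populations and cacti, all 5 genes rose from 25 to 35°C, where 5.19% of the transcripts on the array rose (adjusted p below 0.01, Benjamini-Hochberg over all transcripts and all 13 heat contrasts in limma). The median difference of the 5 genes was 1.39, and that of all transcripts -0.02. GI13088 rose by 1.96 ± 0.09 (SE) on the log2 scale, and 1 transcript called as a rise had a larger difference. GI12244 and GI19527 followed at 2.80 and 2.63 times. GI13085 rose by 1.03 ± 0.10 and GI11114 by 0.63 ± 0.04, and 18 and 68 transcripts called as rises had larger differences. Over the same step Vm26Aa and Vm26Ab were lower by 0.58 ± 0.15 and 0.60 ± 0.11 (adjusted p = 0.0087 and 3.32e-05, limma), and the part of egg-forming tissue in the rise of the 5 genes was not tested.

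**Figure D1:**
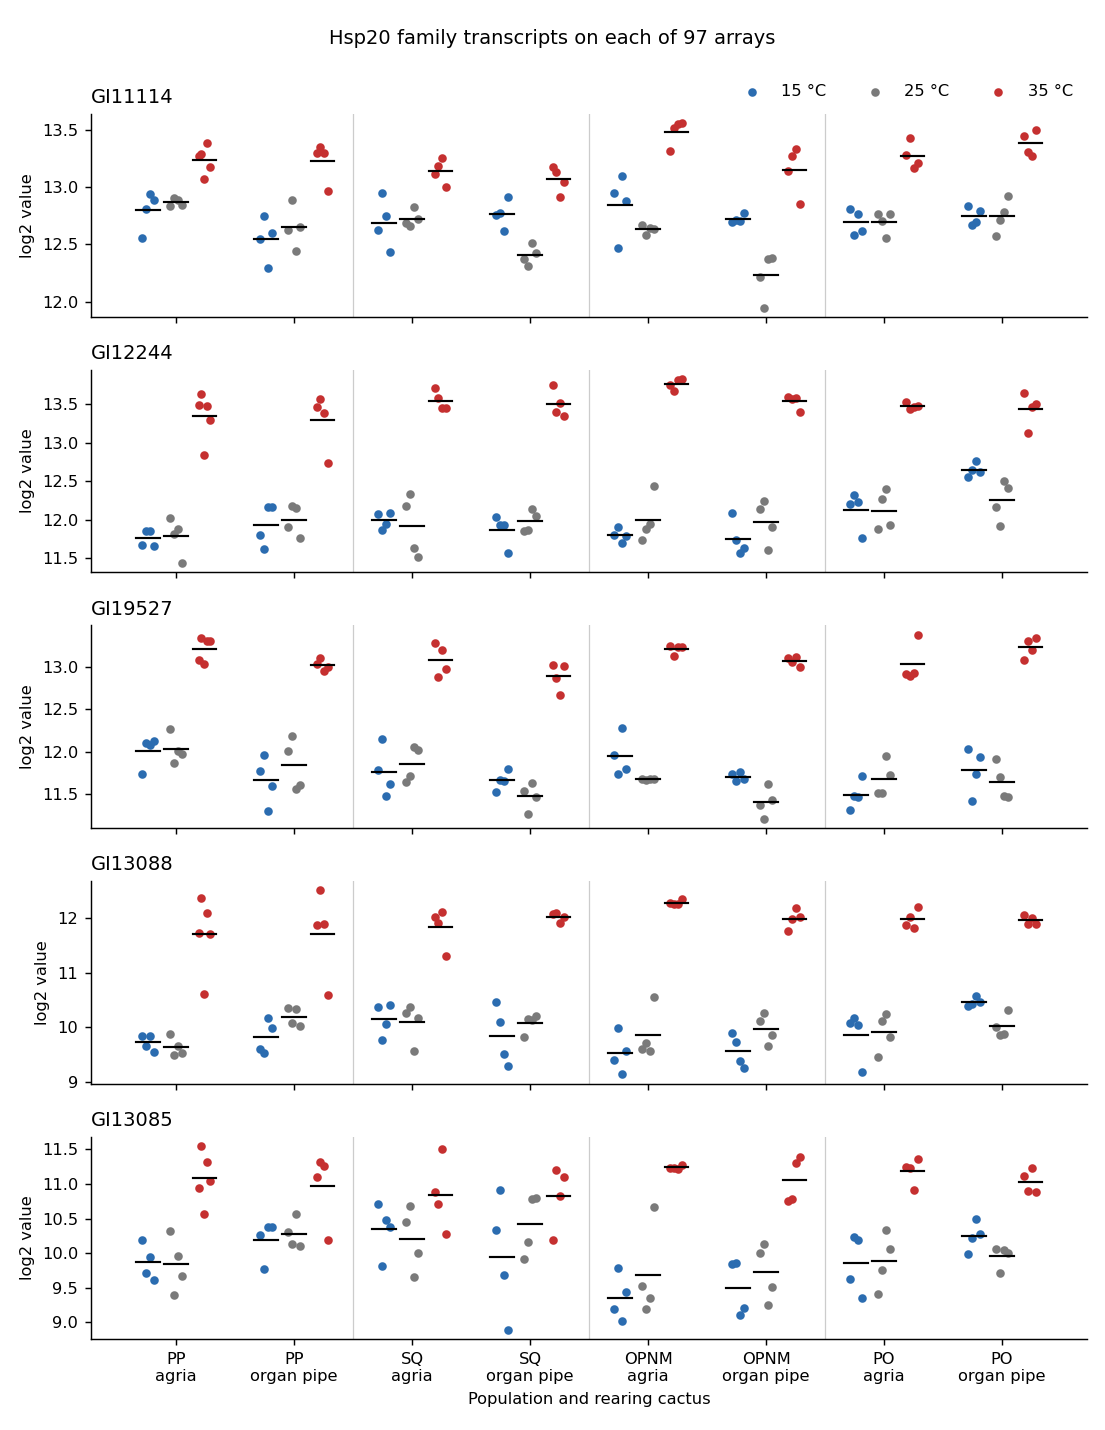
Deposited log2 value (vertical axis) of each Hsp20 family gene on every array, by population and rearing cactus (horizontal axis), with points colored by exposure temperature and bars at the mean of each group. The red points of 35°C lie apart from the grey points of 25°C in 37 of 40 combinations of gene, population, and cactus, and the blue and grey points lie apart in 6.

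The arrays at 25 and 35°C did not overlap in 37 of the 40 combinations of gene, population, and cactus. Pooled over the 8 combinations of population and cactus, 3.88% of all transcripts had every 35°C array above every 25°C array. GI11114, GI12244, GI19527, and GI13088 were free of overlap in 8 of 8 combinations and GI13085 in 5 of 8. Even over both cacti together, the arrays stayed apart in 18 of 20 combinations of gene and population, as 0.444% of all transcripts did. Of the 65 contrasts fitted (5 genes, 13 sets of groups), 59 were called and all were rises, and 1.37% of all transcripts were called as rises in the same contrasts. The 6 that were not called comprised GI11114 in PP flies on agria and 5 contrasts of GI13085. When only the groups compared were fitted, 54 were called, and the calls of GI13088 in PP on organ pipe (adjusted p = 0.0409) and of GI11114 in PP, SQ, and PO on organ pipe and in SQ and PO on agria (0.0122 to 0.108) were lost, and that of GI13085 in PO on organ pipe was gained.

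GI13088 had the largest mean rise of the 5 genes. In PP flies its values at 25°C were 9.50 at the lowest, 9.95 at the median, and 10.36 at the highest of 8 arrays, and at 35°C they were 10.59, 11.88, and 12.51 over 9 arrays. In OPNM flies the same 3 values were 9.56, 9.79, and 10.55 at 25°C and 11.77, 12.22, and 12.35 at 35°C. The highest array at 25°C thus remained below the lowest at 35°C in both populations, by a narrow margin in PP. In SQ flies the lowest 35°C array was at 11.30 and the highest 25°C array at 10.37, and in PO flies at 11.81 and 10.33. By population, GI13088 rose by 1.79 ± 0.17 in PP, 1.84 ± 0.17 in SQ, 2.22 ± 0.17 in OPNM, and 2.001 ± 0.17 in PO (SE, 16 or 17 arrays each). No transcript called as a rise in SQ flies had a larger difference than GI13088.

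GI12244 had population means at 35°C between 13.32 in PP and 13.65 in OPNM. Its 8 arrays of SQ ran from 11.51 through a median of 11.96 to 12.34 at 25°C and from 13.34 through 13.48 to 13.75 at 35°C. Those of PO ran from 11.87 through 12.22 to 12.50 at 25°C and from 13.12 through 13.47 to 13.65 at 35°C. The gap between the highest 25°C and the lowest 35°C array was 0.62 in PO and 1.005 in SQ, and with 0.56 in PP and 0.96 in OPNM no population overlapped. The rise was smallest in PO flies on organ pipe (2.28 times) and largest in OPNM flies on agria (3.40 times), and it was called in all 8 combinations.

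GI19527 had tight arrays at 35°C, with a pooled SD of 0.14 over the 8 groups, against 0.20 at 25°C. In OPNM flies on agria the 4 arrays at 25°C were at 11.68, 11.67, 11.68, and 11.67, and the 4 at 35°C at 13.25, 13.13, 13.24, and 13.23. All 4 arrays at 35°C stood more than 1 log2 unit above those at 25°C. In PP flies on organ pipe the arrays at 25°C were at 12.00, 12.18, 11.56, and 11.60, and those at 35°C at 13.03, 13.10, 12.95, and 12.9995. Here the 25°C arrays were scattered and the 35°C arrays were not. The rise was called in all 8 combinations and lay between 2.27 and 3.16 times.

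GI11114 rose by 0.48 ± 0.07 in PP, 0.54 ± 0.08 in SQ, 0.89 ± 0.08 in OPNM, and 0.60 ± 0.08 in PO (SE). In OPNM flies on organ pipe the 25°C arrays were at 12.21, 11.95, 12.37, and 12.38 and the 35°C arrays at 13.14, 13.27, 13.34, and 12.85. In PP flies on agria the 25°C arrays were at 12.83, 12.91, 12.89, and 12.84 and the 5 arrays at 35°C at 13.28, 13.29, 13.07, 13.39, and 13.18. Both pairs of groups lay apart without overlap, although the difference of the second, 0.37 ± 0.10, missed the threshold (adjusted p = 0.0128, limma). It passed, at an adjusted p of 0.0085, without the 4 arrays least like their groups. The call in SQ flies on agria (0.41 ± 0.11, adjusted p = 0.00769) was lost without the arrays of any 1 replicate number (adjusted p = 0.0218 to 0.0788), and that in PP flies on organ pipe without those numbered 1 or 3 (0.0103 and 0.0124).

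GI13085 was the one gene whose arrays at 25 and 35°C overlapped within a population and cactus. In SQ flies on organ pipe the arrays at 25°C were at 9.92, 10.16, 10.79, and 10.80 and those at 35°C at 10.20, 11.20, 10.83, and 11.10. In SQ flies on agria they were at 10.45, 10.68, 9.66, and 10.01 at 25°C and at 10.88, 10.72, 11.51, and 10.28 at 35°C. Both SQ groups at 25°C reached into the range of 35°C, and neither difference passed (0.41 ± 0.28 and 0.65 ± 0.28, adjusted p = 0.509 and 0.206, limma). In PP flies on organ pipe the arrays at 25°C were at 10.31, 10.14, 10.56, and 10.10 and those at 35°C at 11.10, 11.33, 11.26, and 10.19, which overlapped (0.69 ± 0.28, adjusted p = 0.164). In PO flies on organ pipe they did not overlap, at 10.06, 9.72, 10.04, and 10.004 against 11.12, 10.89, 11.23, and 10.88. That difference, 1.07 ± 0.28, narrowly missed the threshold (adjusted p = 0.0108) and passed under 7 alternatives (6.39e-05 to 0.00876). The lowest of these values came with array weights, whose estimation did not converge. Over both cacti the SQ difference was 0.53 ± 0.20 (adjusted p = 0.117), and it passed with the array interquartile range as a covariate (0.61, adjusted p = 0.00734). In OPNM flies GI13085 rose by 1.45 ± 0.20, in PO flies by 1.18 ± 0.20, and in PP flies by 0.97 ± 0.20, the last not called without the arrays numbered 2 (0.75, adjusted p = 0.0315). Its calls in single combinations were lost in OPNM on organ pipe without the arrays numbered 3 or 4 (adjusted p = 0.0777 and 0.0145), in PO on agria without those numbered 1 or 2 (0.0549 and 0.0122), and in PP on agria without those numbered 2 (0.044).

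**Figure D2:**
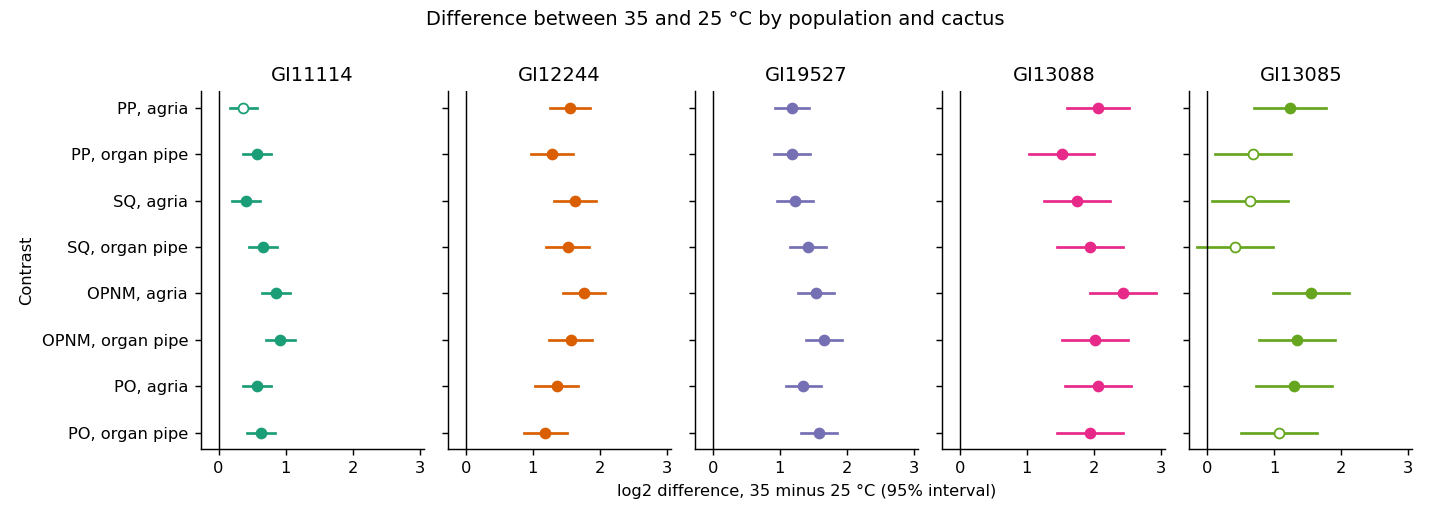
Difference between 35 and 25°C on the log2 scale (horizontal axis) of each gene in each combination of population and cactus (vertical axis), with 95% intervals. Filled circles mark an adjusted p below 0.01, and all 40 estimates lie above 0, from 0.37 for GI11114 in PP flies on agria to 2.43 for GI13088 in OPNM flies on agria.

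By population, 5 of 5 genes rose in PP, OPNM, and PO and 4 of 5 in SQ, where 1.66, 3.65, 0.468, and 1.03% of all transcripts rose in the same contrasts (PP, OPNM, PO, and SQ). Whether the size of the rise differed between populations was tested with interaction contrasts. For each of the 5 genes, OPNM had the largest rise of the 4 populations, and in 4 of the 5 the mean rise of the mainland populations exceeded that of the Baja California populations. The share of all transcripts with either order was not counted. The group means of the 5 genes correlated between genes at r = 0.77 to 0.99, so that these counts are not 5 separate observations. None of the 60 interaction contrasts (6 pairs of populations, region, and 5 contrasts between cacti) passed in limma. Of these contrasts, 12 had an unadjusted p under 0.05, but the share of all transcripts at that level was not counted. The contrasts share arrays and the genes correlate, so that the 12 are not separate observations. Of all transcripts, 0.0201% were called over the interaction contrasts and 0.00688% for region. The contrast between mainland and Baja California was 0.24 for GI11114 (95% interval 0.09 to 0.39), 0.28 for GI19527 (0.10 to 0.47), and 0.57 for GI13085 (0.17 to 0.96). For GI13088 it was 0.29 (-0.05 to 0.64), and for GI12244 it was -0.03 (-0.25 to 0.19), the latter 0.02 without the arrays numbered 4. The vitelline membrane genes also had their largest change from 25 to 35°C in OPNM, -1.09 ± 0.30 for Vm26Aa and -1.04 ± 0.21 for Vm26Ab, against -0.31 to -0.55 in the other populations.

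The lowest adjusted p of an interaction, 0.0839, belonged to GI11114 in OPNM against PP, with a rise larger by 0.41 (0.20 to 0.62) in OPNM. The same contrast was 0.42 (0.15 to 0.68) for GI19527. For GI13085 the largest difference was between OPNM and SQ, 0.92 (0.35 to 1.48, adjusted p = 0.231, limma). For GI11114, GI19527, and GI13085 the populations differed more at 25°C than at 35°C in their means. At 25°C the range of the 4 population means was 0.33 for GI11114, 0.39 for GI19527, and 0.61 for GI13085, and at 35°C it was 0.22, 0.15, and 0.31. For GI12244 and GI13088 the range was smaller at 25°C (0.29 and 0.17) than at 35°C (0.33 and 0.43). GI11114 was lower in OPNM than in PP at 25°C by 0.33 ± 0.08 (adjusted p = 0.00204) and higher in PO than in OPNM by 0.29 ± 0.08 (adjusted p = 0.00761), and GI19527 was lower in OPNM than in PP by 0.39 ± 0.09 (adjusted p = 0.00458, limma). Without the arrays numbered 1 or 2, none of the 3 was called, and GI19527 was not called without those numbered 4 nor GI11114 in PO against OPNM without those numbered 3 or 4 (adjusted p = 0.0106 to 0.134). With arrays centered on their medians, GI19527 in OPNM against PP and GI11114 in PO against OPNM were not called (0.0132 and 0.0272), and none of the 3 was when only the groups compared were fitted (0.0228 to 0.0349). In these contrasts 2.57% of transcripts were lower in OPNM than in PP and 3.88% higher in PO than in OPNM.

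No difference in the rise between rearing cacti passed. The rise on agria minus that on organ pipe was -0.15 for GI11114 (95% interval -0.29 to 0.00) and -0.14 for GI19527 (-0.32 to 0.05). It was 0.19 for GI12244 (-0.04 to 0.41), 0.22 for GI13088 (-0.12 to 0.57), and 0.31 for GI13085 (-0.09 to 0.70). The estimates had 1 sign in the first pair of genes and the other sign in the remaining 3, and each interval included 0.

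The second comparison was between 15 and 25°C, which uses the same 25°C arrays as the comparison with 35°C. Across populations and cacti, 0 of 5 genes differed (limma), where 5.2% of all transcripts did. At an unadjusted p under 0.05, 1 gene differed, and the share of all transcripts at that level was not counted. The 25 minus 15°C difference was -0.11 for GI11114 (95% interval -0.18 to -0.03), 0.02 for GI12244 (-0.09 to 0.13), and -0.05 for GI19527 (-0.15 to 0.04). It was 0.10 for GI13088 (-0.07 to 0.27) and 0.08 for GI13085 (-0.12 to 0.28). The intervals all lay between -0.18 and 0.28, and the rises at the upper step between 0.63 and 1.96. The difference was -0.00156 for GI12244 without the arrays numbered 2 and -0.03 for GI13085 without those numbered 4. The vitelline membrane genes moved most between 15 and 25°C in OPNM, by 2.998 ± 0.30 and 2.10 ± 0.21.

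Of the 65 contrasts between 15 and 25°C, 2 passed, both for GI11114 in OPNM flies, where 1.35% of all transcripts were called over the same contrasts. The arrays of both temperatures lay apart in 6 of 40 combinations of gene, population, and cactus and in 0 of 20 of gene and population, against 7.76 and 0.692% of all transcripts. On organ pipe the GI11114 arrays of OPNM were at 12.69, 12.72, 12.70, and 12.78 at 15°C and at 12.21, 11.95, 12.37, and 12.38 at 25°C. All 4 arrays at 15°C were above all 4 at 25°C, and the level at 25°C was lower by 0.49 ± 0.11 (adjusted p = 0.00155, limma), where 2.26% of transcripts were lower at 25°C. Over both cacti it was lower by 0.35 ± 0.08 (adjusted p = 0.00121), where 2.09% of transcripts were lower. On agria the 15°C arrays, at 12.95, 12.47, 13.10, and 12.88, overlapped those at 25°C, at 12.67, 12.59, 12.64, and 12.63. The organ pipe call was lost without the arrays numbered 1 or 2 (adjusted p = 0.0557 and 0.0628), and that over both cacti without those numbered 1 or 3 (0.0635 and 0.0173). The former was also lost with arrays centered on their medians (-0.41, adjusted p = 0.0153), and both were lost when only the groups compared were fitted (0.0503 and 0.0454). In SQ flies on organ pipe GI11114 was likewise at 12.76, 12.78, 12.62, and 12.92 at 15°C against 12.37, 12.31, 12.51, and 12.43 at 25°C, with no overlap and an adjusted p of 0.0459. In GI11114 the 25°C level was thus the lowest of the 3 temperatures in both of these groups reared on organ pipe.

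In OPNM flies GI19527 was likewise higher at 15 than at 25°C without overlap on both cacti. On agria its arrays were at 11.97, 11.73, 12.28, and 11.80 at 15°C, all above the 4 arrays at 25°C given above. On organ pipe they were at 11.73, 11.66, 11.76, and 11.68 at 15°C and at 11.38, 11.21, 11.62, and 11.43 at 25°C. The difference over both cacti, -0.28 ± 0.09, did not pass (adjusted p = 0.118, limma).

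In PO flies on organ pipe, GI12244 and GI13088 were higher at 15 than at 25°C, with no overlap between the arrays. The 4 arrays of GI12244 at 15°C were at 12.55, 12.65, 12.76, and 12.62, and those at 25°C were at 12.16, 11.92, 12.50, and 12.41. All 4 arrays at 15°C were also above each of the 28 other arrays at that temperature, the highest of which was at 12.33. For GI13088 the 15°C arrays were at 10.39, 10.43, 10.58, and 10.47 and the 25°C arrays at 10.01, 9.87, 9.88, and 10.33, and 2 of the 28 other 15°C arrays reached the lowest of the former. The 25 minus 15°C differences of -0.39 ± 0.16 for GI12244 and -0.44 ± 0.25 for GI13088 did not pass (adjusted p = 0.268 and 0.52, limma).

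Between populations, GI12244 had 4 calls, 3 of them at 15°C. It was higher in PO than in PP by 0.54 ± 0.11 (adjusted p = 0.000622), than in SQ by 0.46 ± 0.11 (adjusted p = 0.00494), and than in OPNM by 0.61 ± 0.11 (adjusted p = 7.64e-05, limma), contrasts in which 1.25, 0.523, and 0.675% of transcripts were higher in PO. The population means at 15°C were 11.77 in OPNM, 11.85 in PP, 11.93 in SQ, and 12.39 in PO, and no contrast among the 3 lower populations was called. By cactus, the 15°C means in OPNM, PP, SQ, and PO were 11.75, 11.94, 11.86, and 12.64 on organ pipe. On agria they were 11.80, 11.76, 11.99, and 12.13, so that PO stood out mainly on organ pipe. All 4 calls of GI12244 use the PO arrays at 15°C. Over all temperatures PO exceeded PP by 0.32 ± 0.06 (adjusted p = 0.000314), as 3.29% of transcripts did. The calls against OPNM and over all temperatures were lost without the arrays numbered 3 (adjusted p = 0.0118 and 0.0141), that against PP at 15°C without those numbered 1 or 2 (0.0265 and 0.0277), and that against SQ without those numbered 1, 2, or 3 (0.0281 to 0.0621). GI13088 and GI13085 had their lowest 15°C means in OPNM as well, at 9.55 and 9.43. They were higher in PO by 0.62 ± 0.17 and 0.62 ± 0.20 without passing (adjusted p = 0.0183 and 0.0512, limma), and GI13088 passed without the 4 arrays least like their groups (adjusted p = 0.00549). For GI13085 the lowest and highest populations at 15°C were OPNM and SQ, 0.72 ± 0.20 apart (adjusted p = 0.0172, and 0.00812 without those 4 arrays).

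In all, 7 of 140 population contrasts were called, 5 of them positive and 2 negative, and 2.82% of all transcripts were called over these contrasts. The mean of the mainland populations minus that of Baja California over all temperatures was called for none of the 5 genes and for 9.1% of all transcripts. At an unadjusted p under 0.05, 2 genes differed, and the share of all transcripts at that level was not counted. The regional difference was 0.16 ± 0.05 for GI12244 (adjusted p = 0.0169, limma), which passed under 4 alternatives (adjusted p = 0.00548 to 0.00983). These were arrays centered on their medians, the interquartile range as a covariate, adjustment within each contrast, and array weights, whose estimation did not converge. The mainland populations were not alike in GI12244. At 15°C OPNM had the lowest mean of the 4 populations (11.77) and PO the highest (12.39). At 25°C both mainland means were above both Baja California means, and at 35°C PO (13.46) was below SQ (13.52) and OPNM was the highest (13.65). For GI13085 the regional difference was -0.17 ± 0.08 (adjusted p = 0.232, limma). The other 3 lay between -0.05 and 0.05. The paper, with its own model on these arrays, lists 5 small heat shock genes of this family among those higher in mainland flies. Its text does not name them but refers to a supplementary table, and they were not matched to the 5 genes here. Of the egg membrane genes, both were lower on the mainland, Vm26Aa by 0.71 ± 0.12 and Vm26Ab by 0.38 ± 0.09 (adjusted p = 2.61e-05 and 0.00234, limma).

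The third comparison was between the rearing cacti. Across populations and temperatures, GI11114 was higher after development on agria by 0.12 ± 0.03, or 1.09 times (adjusted p = 0.00976, limma). This made 1 of 5 genes called, where 14.7% of transcripts were called, 13% higher and 1.68% lower on agria, and the single call is not far from that background. Without the arrays numbered 1 or 3, the number of transcripts called fell from 2132 to 185 and 558. Of all transcripts called, 1888 were higher and 244 lower on agria in the deposited values, but 1160 and 979 when each array was centered on its median. With that centering GI11114 differed by 0.07 and was not called (adjusted p = 0.136), nor was it called without the arrays of any 1 replicate number (adjusted p = 0.0185 to 0.103). Vm26Aa and Vm26Ab were at 0.27 ± 0.12 and 0.27 ± 0.09 in the same contrast (adjusted p = 0.224 and 0.0576).

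GI11114 was also higher on agria at 25°C, by 0.22 ± 0.05 (adjusted p = 0.00553), and in OPNM flies over all temperatures, by 0.29 ± 0.06 (adjusted p = 0.00163, limma). With the contrast over all groups these made 3 of 100 cactus contrasts, where 1.88% of all transcripts were called. In the same contrasts 5.33 and 5.94% of transcripts were higher on agria. In OPNM flies at 25°C the agria arrays were at 12.67, 12.59, 12.64, and 12.63 and the organ pipe arrays at 12.21, 11.95, 12.37, and 12.38. These groups did not overlap and differed by 0.40 ± 0.11, just short of the threshold (adjusted p = 0.0127). In the other populations the differences over all temperatures were 0.16 ± 0.06 in PP, 0.10 ± 0.06 in SQ, and -0.07 ± 0.06 in PO, with no call. When only the groups compared were fitted, the calls in OPNM and over all groups were lost (adjusted p = 0.0218 and 0.0121). Neither the 25°C nor the OPNM call held with arrays centered on their medians (adjusted p = 0.0455 and 0.013). Without the arrays of any 1 replicate number the 25°C call was lost (adjusted p = 0.0105 to 0.138), and the OPNM call was lost without those numbered 1, 3, or 4 (0.0104 to 0.0495).

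GI19527 had the same sign as GI11114, with 0.13 ± 0.04 over all groups (adjusted p = 0.0272) and 0.22 ± 0.07 at 25°C (adjusted p = 0.04, limma), and the agria mean was the higher in 10 of 12 combinations of population and temperature. For GI12244, GI13088, and GI13085 the differences over all groups were -0.04 ± 0.05, -0.09 ± 0.07, and -0.06 ± 0.08, and the agria mean was higher in 7, 4, and 5 of 12 combinations. The largest cactus differences of GI12244 and GI13088 were both in PO flies at 15°C, -0.51 ± 0.16 and -0.60 ± 0.25 (adjusted p = 0.0424 and 0.157). There the arrays on agria were at 12.21, 12.33, 12.22, and 11.77 for GI12244 and at 10.08, 10.17, 10.04, and 9.18 for GI13088, all below the organ pipe arrays given above.

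**Figure D3:**
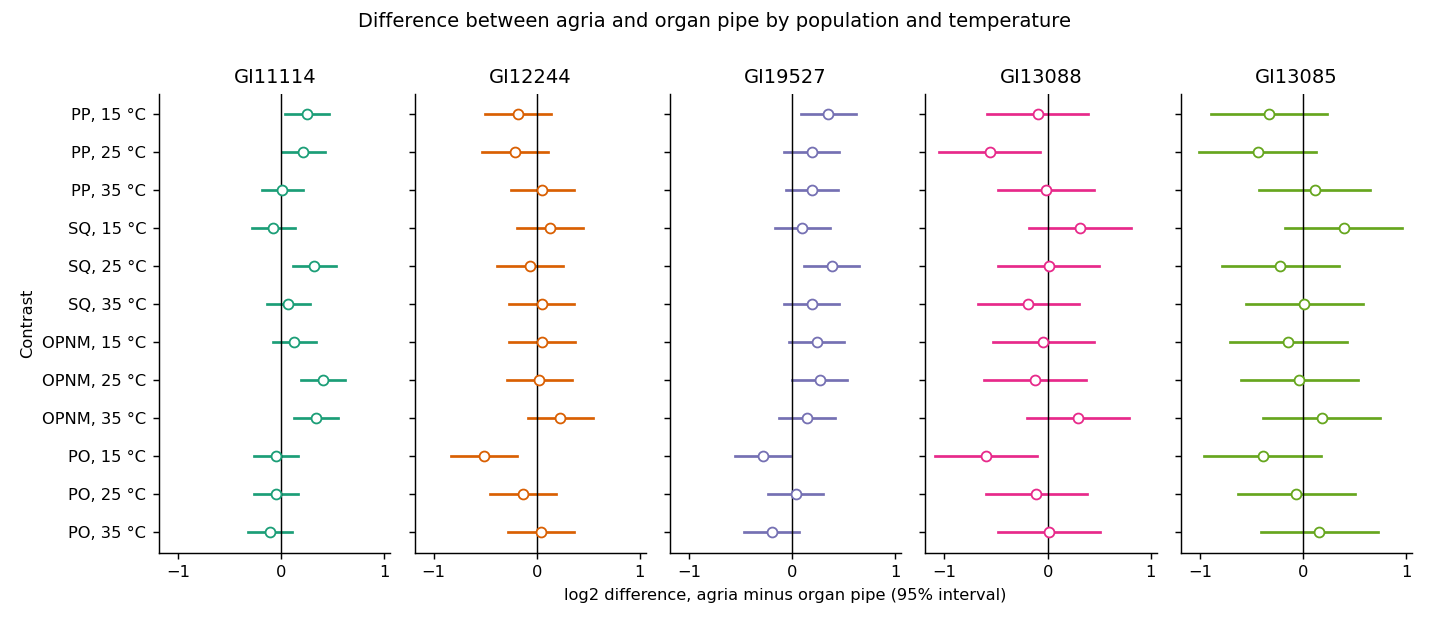
Difference between agria and organ pipe on the log2 scale (horizontal axis) of each gene in each combination of population and temperature (vertical axis), with 95% intervals. All circles are open because none of the 60 differences had an adjusted p below 0.01, and the estimates run from -0.60 for GI13088 in PO flies at 15°C to 0.40 for GI11114 in OPNM flies at 25°C.

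The spread among arrays of a group differed between the 5 genes. The pooled SD over all groups was 0.14 for GI11114, 0.19 for GI19527, 0.23 for GI12244, 0.36 for GI13088, and 0.41 for GI13085, against a median of 0.26 over all transcripts. GI11114 stood at the 7.95th percentile of all transcripts and GI13085 at the 89.5th. The largest group SDs of GI13088 were in PP flies at 35°C, 0.81 on organ pipe and 0.67 on agria, and in OPNM flies on agria at 35°C it was 0.04. The largest of GI13085 was 0.87 in SQ flies on organ pipe at 15°C, where its arrays were at 10.33, 10.91, 9.68, and 8.89.

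Some arrays lay far from their group means in several genes at once. Array 4 of PP on organ pipe at 35°C was below its group mean by 1.13 in GI13088, by 0.78 in GI13085, by 0.55 in GI12244, by 0.26 in GI11114, and by 0.02 in GI19527. Array 3 of PP on agria at 35°C was below its mean by 1.09, 0.52, and 0.51 in the first 3 of these genes, by 0.17 in GI11114, and by 0.18 in GI19527. Array 4 of OPNM on agria at 25°C was above its mean by 0.70, 0.99, and 0.44 in the same 3 genes and differed by less than 0.01 in GI11114 and GI19527. Both PP arrays were thus low in all 5 genes, and the OPNM array was high in 3 of them.

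Over the 97 arrays, the deviations of GI13088 and GI13085 correlated at Pearson's r = 0.79 (Spearman's rho = 0.82), those of GI12244 and GI13088 at 0.75 (0.73), and those of GI12244 and GI13085 at 0.62 (0.61). Each of these had a permutation p of 1e-05 for r and for rho (two-sided, 100000 resamples within groups), the smallest these resamples can give, and 3.33e-05 after adjustment over the 10 pairs of genes. Without the 2 arrays farthest from the median of the first gene, r was 0.79, 0.70, and 0.58. GI11114 and GI19527 correlated at r = 0.41 (permutation p = 0.00091, adjusted 0.00228) and rho = 0.33 (p = 0.00582, adjusted 0.0146), and r was 0.39 without 2 arrays. None of the other 6 pairs passed over all temperatures, with r between -0.18 and 0.00 and a lowest adjusted permutation p of 0.152.

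The deviations of GI13085, GI13088, and GI12244 also correlated with the deviation of the array's interquartile range (r = 0.60, 0.46, and 0.13), those of GI19527 and GI11114 at r = -0.03 and -0.10. With a linear term for that range, the same 4 pairs of genes passed, at r = 0.72 (GI13088 and GI13085), 0.79 (GI12244 and GI13088), 0.68 (GI12244 and GI13085), and 0.41 (GI11114 and GI19527). The labels name no slide, scan, or extraction, so that the part of shared handling in these correlations was not tested. Within temperatures, GI13088 and GI13085 correlated at r = 0.82, 0.85, and 0.76 at 15, 25, and 35°C. The pairs with r near 0 over all arrays had opposite signs at 15 and 35°C, given as a description over 32 and 33 arrays. The r was -0.38 and 0.60 for GI11114 and GI12244, -0.48 and 0.60 for GI11114 and GI13088, and -0.46 and 0.35 for GI11114 and GI13085. It was -0.51 and 0.21 for GI19527 and GI12244, -0.60 and 0.40 for GI19527 and GI13088, and -0.49 and 0.23 for GI19527 and GI13085.

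**Figure D4:**
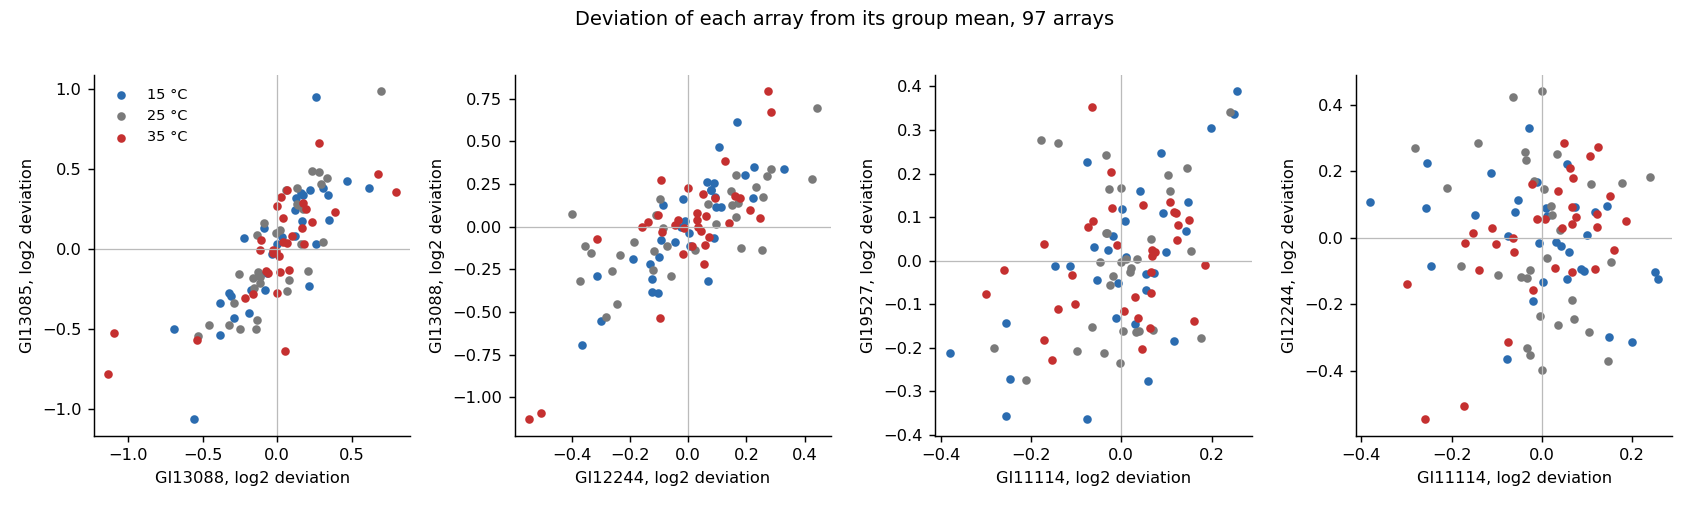
Deviation of each array from the mean of its group on the log2 scale for 4 pairs of genes, 1 point per array, colored by temperature. Points follow the diagonal for GI13088 and GI13085 (r = 0.79) and for GI12244 and GI13088 (r = 0.75), less so for GI11114 and GI19527 (r = 0.41), and for GI11114 and GI12244 they show no slope over the 97 arrays together (r near 0).

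To find transcripts with the same pattern, the mean centered profile of the 5 genes over the 24 group means was compared with every transcript by Pearson correlation, as a description. The 5 genes are part of that profile, and those with larger changes weigh more in it, so that their own ranks were favored in advance. GI13088 ranked first (r = 0.99) and GI12244 second (0.98), while GI19527, GI13085, and GI11114 ranked 8, 14, and 29 (0.97, 0.94, and 0.89). The 5 nearest transcripts besides these genes were FBtr0174888, FBtr0160978, FBtr0173223, FBtr0173224, and FBtr0171072, with r between 0.967 and 0.974. Their differences from 25 to 35°C were 1.47, 1.83, 2.17, 1.83, and 1.57. No annotation used here names them, so that whether they belong to the Hsp20 family is not known here. Of these 5 only FBtr0173223 was also among the 12 nearest by Spearman correlation.

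Of other chaperones, only 3 Hsc70 genes were examined here. Hsc70 genes in *D. melanogaster* encode Hsp70-type chaperones made without heat, Hsc70-3 in the endoplasmic reticulum and Hsc70-4 in the cytosol. From 25 to 35°C the difference was -0.35 ± 0.10 for Hsc70-1 (GI11627), 0.10 ± 0.04 for Hsc70-3 (GI14717), and -0.08 ± 0.03 for Hsc70-4 (GI22919), with 0 of 3 called (adjusted p = 0.0248, 0.0883, and 0.127, limma). In that contrast 11.9% of all transcripts were called in either direction. At an unadjusted p under 0.05, 3 of 3 differed, in opposite directions, and the share of all transcripts at that level was not counted. Their correlations with the mean profile of the Hsp20 genes over the 24 group means were -0.49, 0.52, and -0.49. Hsc70-1 was higher on agria by 0.41 ± 0.08 (adjusted p = 0.00121, limma), as 13% of all transcripts were.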

How the data were processed

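Females of 4 populations, 2 rearing cacti, and 3 temperatures were measured on 97 single-color oligonucleotide arrays with 9 probes per transcript. The authors hybridized Cy3-labeled cDNA, quantile normalized the signals, and summarized probes by RMA, and the deposited values are log2 values for 14528 transcripts. Background signals were not used here. Groups follow the labels. A mean for each of the 24 groups was fitted in limma 3.58.1 (R 4.3.3; 73 residual degrees of freedom) and contrasts were tested with moderated statistics, with Benjamini-Hochberg adjustment over all transcripts and all contrasts of a kind and a threshold of 0.01. The fit was tested on simulated data. Values per array, overlaps, and permutation tests used Python 3.11.15, numpy 2.4.6, scipy 1.17.1, and pandas 2.3.3. Precision is limited by how many arrays a group has.

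The 5 members are described in full. Transcripts other than the 5 genes were named as the 5 nearest in Pearson correlation with the mean profile, besides 3 annotated Hsc70 genes and 2 ovarian follicle markers. Members and lists were chosen with earlier results of these data known. Alternatives covered centering, repeated quantile normalization, array weights, a covariate for array spread, a filter on dim transcripts, the set of arrays fitted, moderation, adjustment, a replicate block, and arrays left out.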

Additional observations from a re-analysis of the deposited data

Results flagged for a closer look

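In 8 of the 120 sets formed by a gene and a group, 1 array lay far from the others by Dixon's test, and chance alone gives about 1 in 20 such sets.

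For GI13088, array 4 of OPNM on agria at 25°C was at 10.55 with the others between 9.56 and 9.71, and array 4 of PO on agria at 15°C was at 9.18 with the others between 10.04 and 10.17. For GI19527, array 4 of PO on agria at 35°C was at 13.38 with the others between 12.89 and 12.93. Array 1 of PP on agria at 15°C was at 11.74 with the others between 12.08 and 12.12, and array 2 of OPNM on agria at 35°C was at 13.13 with the others between 13.23 and 13.25.

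For GI11114, array 4 of PP on organ pipe at 35°C was at 12.97 with the others between 13.30 and 13.36, and it is 1 of the 4 arrays least like their groups. For GI12244, array 4 of OPNM on organ pipe at 35°C was at 13.40 with the others between 13.57 and 13.59. For GI13085, array 2 of PO on organ pipe at 25°C was at 9.72 with the others between 10.00 and 10.06.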

How the results depend on the processing

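Of 65 heat contrasts, 59 were called, and between 54 and 63 under every alternative, all of them rises. With each array centered on its median, 1 contrast between 15 and 25°C and 0 cactus contrasts were called. With array weights, whose estimation did not converge and which ran from 0.00272 to 277, the counts were 5 for 15 against 25°C, 20 for cactus, 29 for population, and 4 for interaction, GI12244 differed by -0.0696 between 15 and 25°C, and GI13088 by -0.0176 between mainland and Baja California. Fitting only the groups compared gave 54, 0, 1, and 4 calls for heat, 15 against 25°C, cactus, and population, with fewer arrays to estimate the spread. Adjusting within each contrast gave 5 cactus calls. Requiring a difference of 1.5 times as well left 0, 0, and 1 call for 15 against 25°C, cactus, and population.

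Without the arrays of 1 replicate number, the calls ranged from 55 to 57 for heat, 0 to 2 for 15 against 25°C, 0 to 1 for cactus, and 2 to 6 for population, and 0 interactions were called. Signs then changed for 5 values. Between 15 and 25°C GI12244 ranged from -0.00156 (without number 2) to 0.0392 and GI13085 from -0.0253 (without number 4) to 0.158. GI11114 ranged from -0.021 (without number 3) to 0.105 between cacti at 15°C, GI13088 from -0.0039 (without number 4) to 0.101 between mainland and Baja California, and the regional interaction of GI12244 from -0.0778 to 0.0162 (without number 4). Of the 5 nearest transcripts, 4 to 5 were again among the 5 nearest, and 1 by Spearman correlation. The causes were not tested.

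With the replicate number as a block, the calls were 58 for heat, 2 for 15 against 25°C, 2 for cactus, 7 for population, and 0 for interaction. Of the single results named, GI11114 was then not called in SQ on agria at 35 against 25°C (adjusted p = 0.0103, limma) and between cacti over all groups (0.0117). Between arrays of different groups, deviations correlated at -0.00925 on average for equal and 0.00607 for different numbers. Of 97 arrays, 13 correlated best with their own number. Averaged over all groups, the numbers thus showed no pairing of the samples. Pairing among only the groups of a population and cactus would be diluted in such an average and was not tested. Chosen after seeing the data, leaving out the 4 arrays least like their groups gave 61, 2, 4, 9, and 0 calls in the same order.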
